A study of Homo sapiens with 6 samples.

Results

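The IRF2BP2 locus was described as the SMAD2/3 peaks whose midpoint lay in a 260-kb window of chromosome 1 around that gene, chr1:234640000-234900000 on hg19. It held 22 of the 20600 peaks in 4 peak lists. SMAD2/3 chromatin immunoprecipitation and sequencing (ChIP-seq) had been done in 2 human triple-negative breast cancer lines in long use, Hs578T and BT549, either 1.5 h or 16 h after TGFβ3 was added. Each line and time had 1 library, so there are no replicates and no difference was tested. Both lines were grown in serum-containing medium with insulin, and all 4 libraries came from stimulated cells. The 2 input DNA samples, 1 per line and labelled untreated, were not analysed here. The sources used here give no dose of TGFβ3. The Hs578T lists held 1373 peaks (1.5 h) and 1849 (16 h), the BT549 lists 9225 and 8153. They carry no read totals, so the depth is unknown. The window was set by position, and the locus itself was chosen by the scores and ranks of a site next to the gene that was listed in all 4 libraries; these are therefore given as a description.

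SMAD2 and SMAD3 are phosphorylated by the activated TGFβ receptor, join SMAD4 and enter the nucleus. There the SMAD complexes bind DNA through short CAGAC-type elements together with partner transcription factors. IRF2BP2 encodes interferon regulatory factor 2 binding protein 2, a nuclear zinc-finger and RING-finger protein first described as a corepressor of IRF2. It is also known as a cofactor of VGLL4 and TEAD4, as a repressor of NFAT1, and as a brake on inflammatory gene expression in macrophages. The gene lies on the minus strand, so upstream means a higher coordinate. Its start was taken at 234745 kb on hg19, rounded to the kb, and this rounding alone can shift the distances below by about 0.5 kb. The start annotated in GRCh38.p14 was not placed on hg19, so distances from it were not determined. In the RefSeq table of GRCh38.p14, used only for gene order, the next protein-coding gene upstream is TOMM20, which encodes a mitochondrial import receptor. The 20 annotated genes between them code for no protein, and 18 are long non-coding RNAs, beginning with LINC00184. TARBP1, an RNA methyltransferase gene, is the next protein-coding gene on the downstream side.

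No peak of any list covered the nominal start of IRF2BP2. The closest were both from BT549 at 1.5 h, 1 of them about 1 kb inside the gene and the other about 2 kb upstream. The RefSeq promoter is shown as background. IRF2BP2 has 2 promoter entries, and only the one at the annotated start of the gene was used. Whether a listed peak covers this promoter was not determined. Its 250 bases before the start (GRCh38.p14, chr1:234610179-234610428, minus strand, written 5′ to 3′) are given with the GC-rich SMAD motif GGCGC, on either strand, in capitals. These coordinates are on another build than the peaks, and the peaks' own hg19 sequence was not used here.
IRF2BP2 promoter: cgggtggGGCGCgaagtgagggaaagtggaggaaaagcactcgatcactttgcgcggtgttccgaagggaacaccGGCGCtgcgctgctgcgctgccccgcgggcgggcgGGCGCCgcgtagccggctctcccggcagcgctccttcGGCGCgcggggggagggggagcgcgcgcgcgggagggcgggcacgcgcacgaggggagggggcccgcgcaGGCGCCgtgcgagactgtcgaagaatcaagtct

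The stretch had 74.4% G and C, against a median of 58% over 35116 RefSeq promoters cut in the same way. GGCGC had 7 matches over both strands, some of which overlapped, and at least 1 match was found in 44.5% of all promoters. The share with 7 or more was not computed, so the count has no background here. A G and C content at least as high was found in 11.6% of the promoters. There was no match to GGCCG (found in 44.7% of promoters), to the SMAD half-site CAGAC (38%) or to the palindrome GTCTAGAC (0.182%). The AP-1 motif TGANTCA (6.57%), TEAD GGAATG (11.9%), RUNX TGTGGT (11%) and FOX TGTTTAC (2.98%) were also without a match on either strand. A missing match says only that these letters do not occur in this window.

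Most SMAD2/3 peaks at the locus lay upstream of the gene. The window also reached farther upstream of the start than downstream, so nothing is read from the larger share on that side. BT549 gave 19 of the 22 peaks (86.4%), close to its share of all listed peaks (17378 of 20600, 84.4%). BT549 had 13 peaks at 1.5 h and 6 at 16 h, and Hs578T had 2 and 1. Merging peaks that shared at least 1 bp gave 15 sites, of which 13 lay upstream of the start and 2 downstream. A peak of BT549 alone was listed at 13 sites, peaks of both lines at 2, and Hs578T had no site of its own. In single libraries 11 of the sites were listed, while 2 were listed in 2 libraries, 1 in 3 and 1 in all 4. All 3 Hs578T peaks overlapped a BT549 peak of the same time, where the share over the whole lists was 11.2% at 1.5 h and 10.3% at 16 h. Conversely, 2 of the 13 BT549 peaks at 1.5 h overlapped an Hs578T peak (1.59% of the list) and 1 of the 6 at 16 h did (2.17%). Since the locus was chosen for a site common to both lines, nothing is read from that excess.

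**Figure D1:**
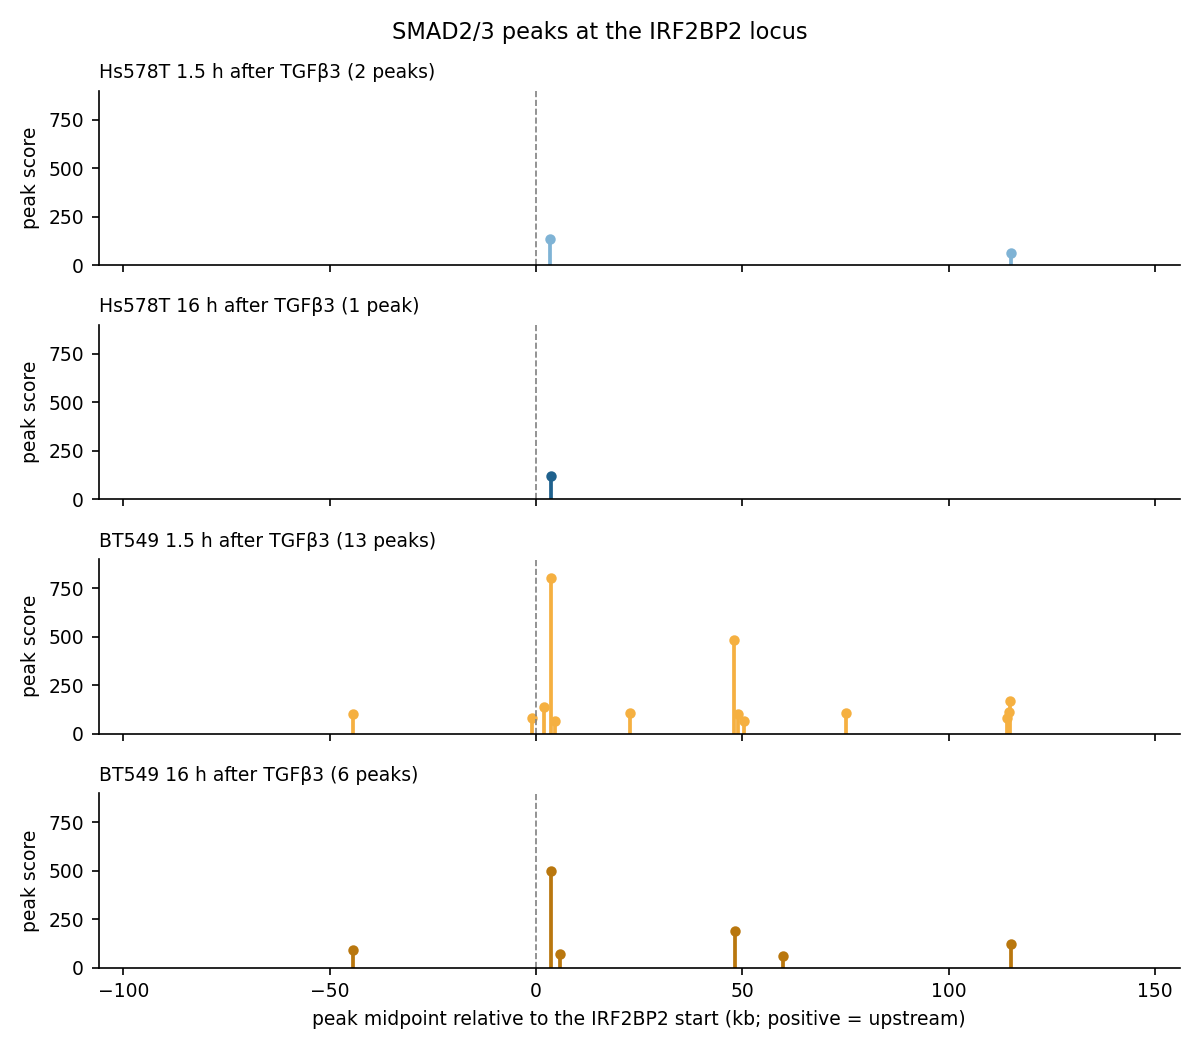
Score of every SMAD2/3 peak at the locus against the distance of its midpoint from the IRF2BP2 start (dashed line), with 1 panel per library on the same score axis. The tallest peak of each panel stands about 3.5 kb upstream of the start, and the second tallest of both BT549 panels about 48 kb upstream.

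The leading site lay about 3.5 kb upstream of the IRF2BP2 start and was the only one of the 15 with a peak in every library. Its peak in Hs578T was chr1:234748127-234748784 with a score of 131.9 at 1.5 h, and chr1:234748336-234748758 with 120.6 at 16 h. In BT549 it was chr1:234748226-234749051 with 804.1 at 1.5 h, and chr1:234748267-234748936 with 499.6 at 16 h. These scores are the authors', as their caller MACS gave them. On its scale each step of 10 is a further power of 10 in the p-value, so a score grows with depth as well as with enrichment. Both BT549 values were above both Hs578T values, and in each line the 1.5 h value was the higher.

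The 4 peaks of the leading site were placed almost on top of each other. They had 423 bp in common, chr1:234748336-234748758, which was exactly the Hs578T peak at 16 h, and together spanned 925 bp. The Hs578T peak was 658 bp wide at 1.5 h and 423 bp at 16 h, the BT549 peak 826 bp and then 670 bp. The common stretch made up 64.3% of the Hs578T peak at 1.5 h, 51.2% of the BT549 peak at 1.5 h and 63.1% of that at 16 h. Midpoints lay from 91.5 bp below to 91.5 bp above that of the common stretch. In both lines the 16 h peak lay wholly within the 1.5 h peak. On the side of the gene the Hs578T peak at 1.5 h reached 209 bp past the common stretch and that of BT549 110 bp. On the upstream side they reached 26 bp and 293 bp past it.

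**Figure D2:**
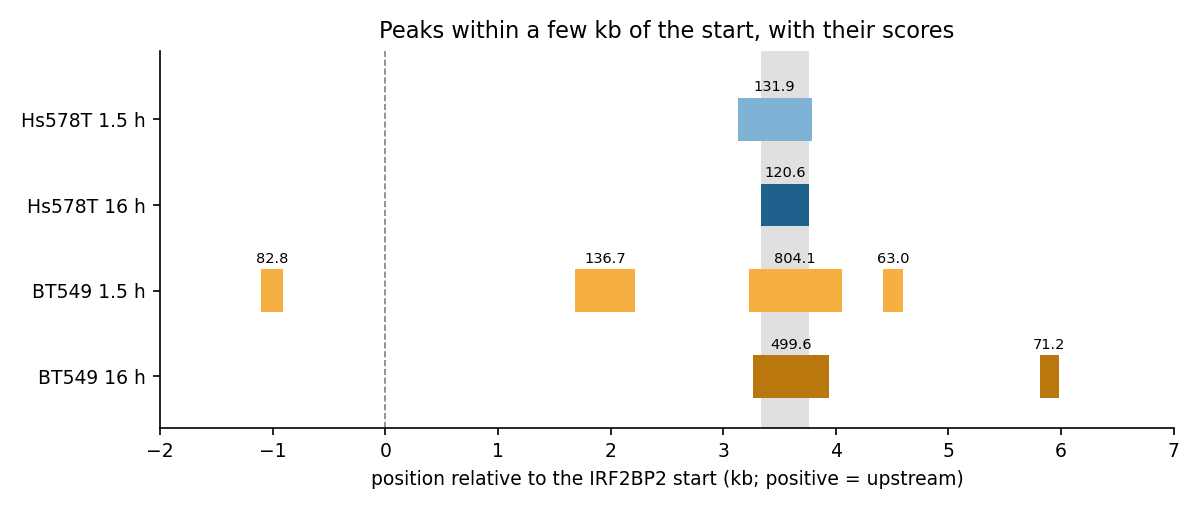
Extent of the peaks within a few kb of the IRF2BP2 start (dashed line) in each library, with the score above each bar; the grey band is the 423 bp that the 4 peaks of the leading site share. BT549 at 1.5 h has 3 further peaks here and BT549 at 16 h has 1, while Hs578T has none.

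As a percentage of its own list the leading peak stood higher in BT549 than in Hs578T. The lists differ in length, and the ranks were among the values by which the locus was chosen. No difference between the lines is therefore read from these places. In BT549 it ranked 53 of 9225 (top 0.575%) at 1.5 h and 95 of 8153 (top 1.17%) at 16 h. In Hs578T its rank was 104 of 1373 (top 7.57%) at 1.5 h and 266 of 1849 (top 14.4%) at 16 h. When peaks under 150 bp were left out of the lists, the Hs578T places were the top 20.2% and 27.0%. The score was 9.09 times the list's median in BT549 at 1.5 h and 6.53 times at 16 h, and 2.17 and 1.98 times in Hs578T. Of 65 merged regions with a peak in all 4 lists, this site took place 24 by its Hs578T rank at 1.5 h and place 36 at 16 h. By its BT549 ranks it took places 5 and 10.

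**Figure D3:**
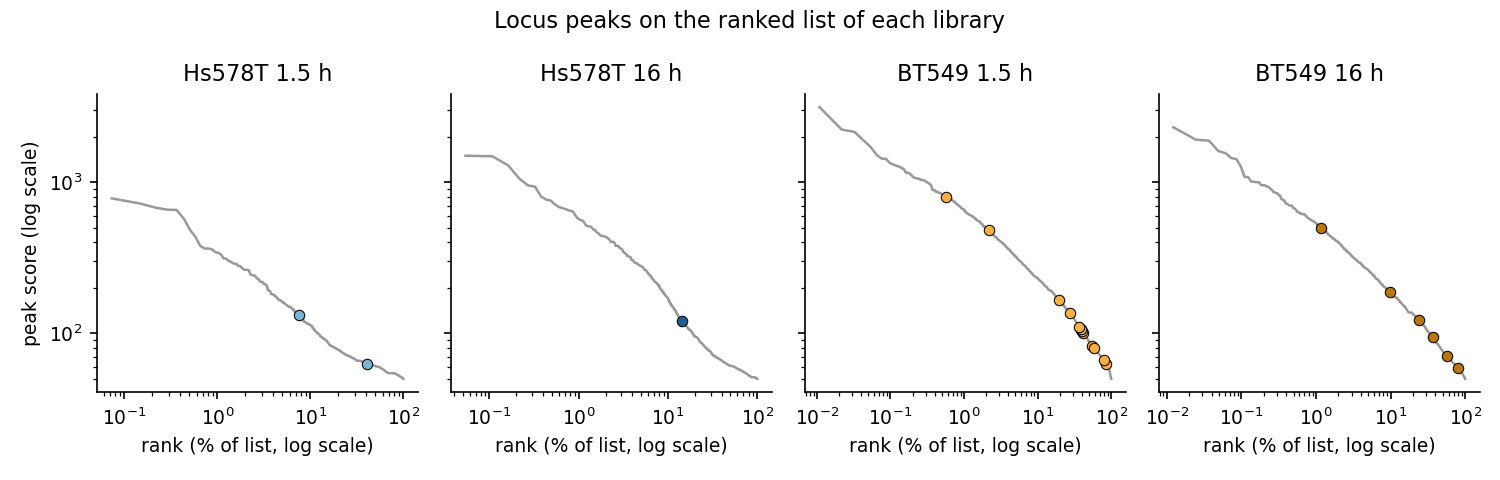
Peak score against rank as a percentage of the list, both on log scales, for all peaks of each library (grey line) with the locus peaks as circles. The leading peak is within the top 1.17% of both BT549 lists and at 7.57% and 14.4% of the Hs578T lists.

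The score of the leading site was 6.10 times as high in BT549 as in Hs578T at 1.5 h, and 4.14 times at 16 h. Over the 154 Hs578T peaks that overlapped a BT549 peak at 1.5 h, the median of this ratio was 1.49, with quartiles of 0.950 and 2.84. Over the 190 at 16 h the median was 1.23, with quartiles of 0.731 and 2.21. The leading site was beyond the upper quartile of the shared peaks at both times. Its scores were among the values by which the locus was chosen, so nothing is read from this. No comparison with peaks of similar score was made here. At 1.5 h the site about 115 kb upstream, also listed in both lines, had a ratio of 2.63, between the quartiles. Differences in depth between the libraries enter every such ratio, the median included.

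At the leading site the listed score was lower at 16 h than at 1.5 h in both lines. Its 16 h score was 0.621 times the 1.5 h score in BT549 and 0.915 times in Hs578T. The BT549 ratio lay between the quartiles of the 3817 peaks listed at both times, 0.593 and 1.15, with a median of 0.818. Among the 141 of these with a 1.5 h score within 1.5 times that of the site, the median was 0.650, close to the ratio of the site. The Hs578T ratio was under the lower quartile of the 382 peaks listed at both times, which had a median of 1.55 and quartiles of 1.06 and 2.53. Among the 135 of similar 1.5 h score the median was 1.53 and the lower quartile 0.972. Ranks at the 2 times come from lists of unequal length, and no change is read from them.

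**Figure D4:**
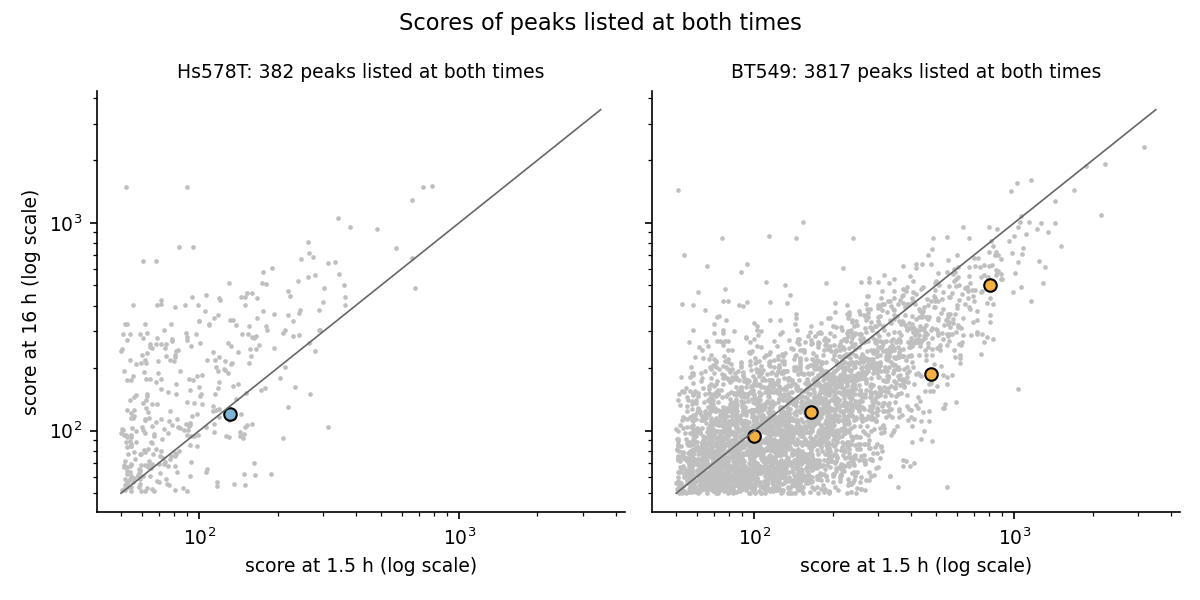
Score at 16 h against score at 1.5 h, on log scales, for the peaks of each line listed at both times (grey points), with those of the IRF2BP2 locus as circles; the line marks equal scores. All 5 circles lie below the line, the farthest being the BT549 site with 480.0 at 1.5 h and 187.9 at 16 h.

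The second site of the locus by score lay about 48 kb upstream and was listed in BT549 at both times. Its peak was chr1:234792496-234793362 with a score of 480.0 at 1.5 h, rank 199, and chr1:234792769-234793457 with 187.9 at 16 h, rank 798. The 16 h score was 0.391 times that at 1.5 h. Among 394 BT549 peaks with a similar 1.5 h score that were listed at both times, the median ratio was 0.635 and the lower quartile 0.462. The score ratio of this site was therefore lower than that of the leading site and under the lower quartile of its like. The nearest Hs578T peak at either time was that of the leading site, 43711 bp away at 1.5 h and 43737 bp away at 16 h.

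The site about 115 kb upstream was listed in 3 of the 4 libraries. BT549 had chr1:234859700-234860197 with a score of 165.6 at 1.5 h and chr1:234859866-234860199 with 122.4 at 16 h. Hs578T had chr1:234859963-234860120 at 1.5 h, with a score of 63.1, rank 562 of 1373 and a width of 158 bp. At 16 h the nearest Hs578T peak was 110941 bp away. With a score not far above the listing limit of about 50 at 1.5 h, the absence of the Hs578T peak at 16 h cannot be told apart from a missed call. The BT549 ratio of 16 h to 1.5 h was 0.739, near the median of 0.677 for peaks of similar 1.5 h score.

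Downstream of the gene, about 44 kb from its start, BT549 again had a site at both times. It was chr1:234700494-234700677 with a score of 100 at 1.5 h and chr1:234700455-234700809 with 93.9 at 16 h. The peak was 184 bp wide at 1.5 h and 355 bp at 16 h. It was the only site of the locus listed at both times whose peak was wider at 16 h. The ratio of the scores was 0.939, against a median of 0.885 for peaks of similar 1.5 h score.

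Around these sites BT549 at 1.5 h had further, weaker peaks that came in groups. Of its 13 peaks, 10 had another peak within 5 kb, where 34.3% of the whole list did. A group of 4 peaks, from about 1 kb inside the gene to 5 kb upstream, held the leading peak. Its others were chr1:234743900-234744094 inside the gene with a score of 82.8, chr1:234746684-234747221 with 136.7, and chr1:234749420-234749595 with 63.0. A group of 3 held the site at 48 kb, with chr1:234793939-234794182 at 103.0 and chr1:234795322-234795613 at 66.5. The third group of 3 covered 1200 bp at 115 kb, where chr1:234858998-234859166 scored 79.5 and chr1:234859351-234859671 scored 110.5. In this last group 28 bp separated the nearest pair of peaks, so they may not be separate sites. Apart from the downstream peak, 2 peaks stood alone, chr1:234767631-234767918 at 23 kb with 105.6 and chr1:234820090-234820247 at 75 kb with 106.9.

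At 16 h BT549 listed fewer of these. Of the 13 peaks at 1.5 h, 4 overlapped a 16 h peak, where 41.4% of the whole 1.5 h list did. Conversely, 4 of the 6 peaks at 16 h overlapped a 1.5 h peak (46.5% of that list). All 3 peaks at 1.5 h that scored above 136.7 were listed again, and in the whole list 72.4% of such peaks overlapped a 16 h peak. Of the 10 with a score up to 136.7, 1 overlapped, where 29.8% of the list's peaks in that range did. The range was set by the highest of the 9 peaks that were not listed again, after their scores were seen. This choice fixes that every peak above the limit was listed again and that all 9 fell at or below it. Nothing is therefore read from the counts above and below the limit beside their list shares. These 9 scored from 63.0 to 136.7. The 16 h list had 2 peaks without one at 1.5 h, chr1:234750810-234750980 about 6 kb upstream with 71.2 and chr1:234804747-234804973 about 60 kb upstream with 59.3. Of the 6 peaks at 16 h, 2 had another within 5 kb, against 24.5% of that list. The same times in Hs578T gave 1 of 2 peaks at 1.5 h overlapping a 16 h peak (27.8% of the list), and the single 16 h peak overlapping a 1.5 h peak (20.1%).

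Peaks with a score of 100 or more numbered 9 of 13 in BT549 at 1.5 h, where 41.9% of the list reached that score, and 3 of 6 at 16 h (33.4%). In Hs578T 1 of 2 did at 1.5 h (12% of the list) and the only peak did at 16 h (18.9%). Locus peaks in BT549 covered 4756 bp at 1.5 h and 2446 bp at 16 h, and in Hs578T 816 bp and 423 bp. Locus peaks were 158 to 867 bp wide in BT549 at 1.5 h and 171 to 689 bp at 16 h, and 5 of the 13 and 2 of the 6 were narrower than their list's median of 238 bp and 240 bp. The 3 Hs578T peaks were all wider than the median of their list, 141 bp at 1.5 h and 151 bp at 16 h.

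The number of peaks at the locus was set beside that in other stretches of this length. Peaks were counted as listed, without merging close neighbours, which in BT549 at 1.5 h were as near as 28 bp at the locus. Cutting the chromosomes into 11735 pieces of 260 kb gave a mean of 0.786 BT549 peaks per piece at 1.5 h, and 8 pieces (0.0682%) held 13 or more. At 16 h the mean was 0.695, and 6 or more were held by 143 pieces (1.22%). For Hs578T the means were 0.117 and 0.158, and at least 2 peaks at 1.5 h were held by 1.31% of the pieces and at least 1 at 16 h by 11.2%. The locus thus had 16.5 and 8.64 times the mean of BT549 at 1.5 h and 16 h, and 17.1 and 6.35 times that of Hs578T. A window chosen to contain peaks is better set beside windows around other peaks. Placed around every peak of a list as it lies around the leading peak, the window held at least as many peaks for 1.27% of the BT549 list at 1.5 h and 13.2% at 16 h. In Hs578T the share was 32.5% at 1.5 h. At 16 h it was 100%, which is fixed, since the count of 1 is the peak itself.

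**Figure D5:**
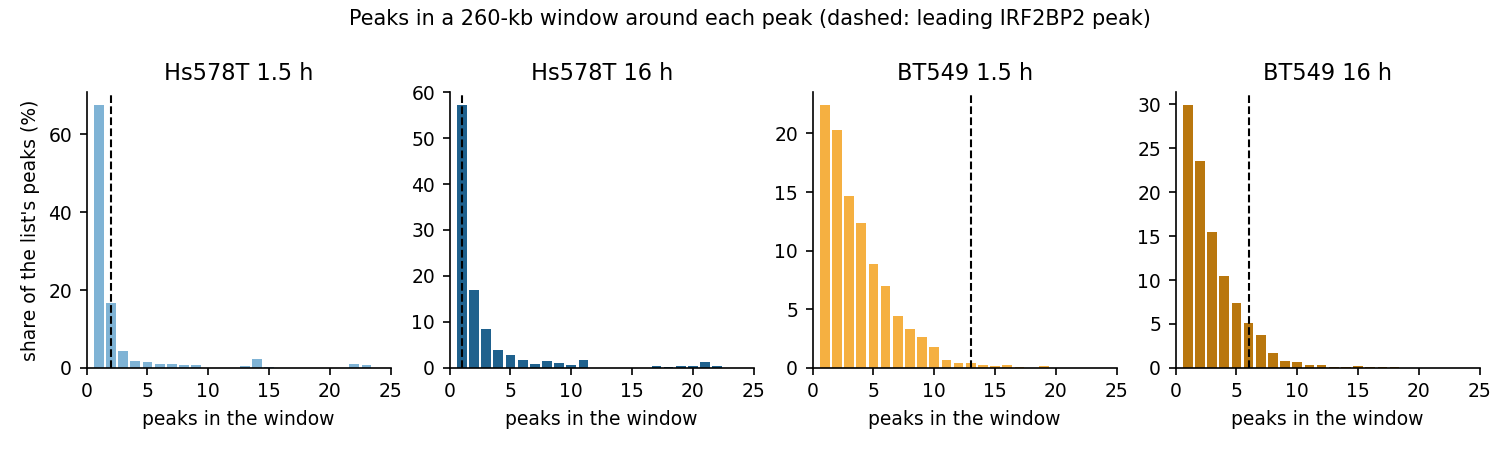
Share of each list's peaks by the number of peaks in a 260-kb window placed around each of them, with the leading IRF2BP2 peak at the dashed line. Peaks are counted as listed, without merging close neighbours. The 13 peaks of BT549 at 1.5 h are matched or exceeded around 1.27% of that list's peaks. The single Hs578T peak at 16 h is at the lowest possible count.

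At the upstream limit of the window the outermost peaks inside were those at 115 kb. The first peaks beyond it were a BT549 site about 163 kb upstream, chr1:234908103-234908516 with a score of 119.3 at 1.5 h and chr1:234908001-234908476 with 202.9 at 16 h. Unlike the 4 BT549 sites inside the window that were listed at both times, it had the higher score at 16 h. On the other side the first BT549 peaks outside were 995 kb from the start at 1.5 h and 766 kb at 16 h, with scores of 99.4 and 97.9. The next Hs578T peak on the upstream side lay 1042 kb from the start at 1.5 h and 2023 kb at 16 h. On the downstream side it lay 269 kb from the start at 1.5 h, with a score of 54.0. At 16 h it lay 2484 kb away on that side, with a score of 60.6.

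The regions most like the leading site were found by the distance of their 4 ranks, on a log10 scale, among the 64 other regions listed in all 4 libraries. The nearest was chr9:127421167-127422014, with Hs578T ranks of 101 (1.5 h) and 144 (16 h) and BT549 ranks of 352 and 51. The next was chr6:19804456-19805516, with ranks of 376, 457, 29 and 22 in the same order. Then came chr20:56284876-56285732 with 49, 55, 101 and 268, chr18:46478155-46479465 with 62, 38, 107 and 93, and chr3:5019864-5021065 with 20, 75, 88 and 55. Their distances from the IRF2BP2 site were 0.906 to 0.959, where a 10-fold difference in a single rank is a distance of 1, so none was a near match. Peaks near the related genes IRF2BP1, IRF2BPL, IRF2 and IRF1 were not counted, as no hg19 annotation was used here.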

How the data were processed

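The 4 deposited peak lists, 1 per library, give each peak's position and the authors' score. The submitters' processing notes name Bowtie 1.1.0, MACS 1.4.2, Picard and the hg19 build. The sources used here do not say what Picard did or whether the input served as background. As there is 1 list per library, peaks appear to have been called per sample, not on pooled samples. The lowest scores, 50.01 to 50.02, and the 1e-05 limit in the file names fit 10 times the negative log10 of p. Scores served to rank and filter peaks within a list, and ratios across lists are set beside the ratios of all shared peaks.

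Positions were converted to count from 1. Peaks overlapped when they shared at least 1 bp. Every locus peak was accounted for; sites elsewhere were named as the 5 closest in log10 rank. The members and lists were chosen with earlier results of these data known. No test was made. Overlap, merging and ranking were checked on simulated peaks. The crowding of windows around each peak and the comparison with peaks of similar score were added after seeing the data. Python 3.11.15, numpy 2.4.6, scipy 1.17.1 and matplotlib 3.10.9 were used.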

Additional observations from a re-analysis of the deposited data

How the results depend on the processing

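Of 34 alternative values for the peak counts, site counts and leading ranks, 28 stayed within a set limit and 6 moved. The limit was 1.5 times the reported count or, for ranks, the 95% Wilson interval of the share of the list. Several of the 28 could not move, so that number is no measure of stability. No locus peak was narrower than 158 bp, so a limit of 150 bp took none from the counts. No peak lay across an edge of the window. With scores of 100 or more, Hs578T at 1.5 h kept 1 locus peak, BT549 at 16 h kept 3, and 9 merged sites were left. A window shortened by 50 kb at each end left 1 Hs578T peak at 1.5 h. Without peaks under 150 bp the leading rank was 99 of 491 in Hs578T at 1.5 h and 262 of 969 at 16 h, since shorter lists were ranked. The site in all 4 libraries was found under each alternative tried, but the locus had been chosen for that site. Merging within 500 bp could not lose it, nor could scores of 100 or more, as its lowest score was 120.6. An overlap of 50% of both peaks could have lost it, and the smallest overlap was 51.2%, just above that limit. Window counts around each peak, added after seeing the data, gave larger shares in every library than equal pieces. In BT549 at 1.5 h the shares were 1.27% and 0.0682%. The direction follows from the design, since a window around a peak holds at least that peak. Of the equal pieces, 63.3% held none in BT549 at 1.5 h. No paired analysis was possible because each line and time has 1 library. Depth is unknown and limits every comparison of scores and peak numbers between libraries. The Wilson interval served only as a limit for calling a rank moved. A rank is not a sampled share, so that interval measures no uncertainty in it.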
